A study of Homo sapiens with 16 samples.

Results

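HepG2 and Caco-2 cells cultured alone were compared with each other, liver line against gut line, in the 8 mono-culture libraries of a series of 16. The 4 HepG2 libraries and the 4 Caco-2 libraries each comprised 2 control cultures and 2 cultures given free fatty acids (FFA), so that treatment was balanced between the lines. All 5322 genes with a mean of at least 10 over these 8 libraries were tested, of 60623 identifiers listed. The series addresses how gut and liver cells respond to FFA on a microfluidic chip, and the 8 remaining libraries come from the same lines in co-culture on that chip.

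HepG2 is a line from a human hepatocellular carcinoma and Caco-2 is a line of the human intestine, from a colorectal adenocarcinoma. Both were cultured in a microfluidic device in the same serum-containing medium, which the study replaced by a serum-free one before FFA treatment. The FFA cultures received palmitic and oleic acid, 1 mM in total at a molar ratio of 1:2, in a serum-free medium holding fatty-acid-free albumin. The labels give 1 day of FFA. The study used both 1 day and a week and reports mRNA sequencing for each, while its methods paragraph on FFA names a week. The labels do not describe the medium of the control cultures. They also do not say whether replicates were separate cultures. The study's methods mention at least 2 independent experiments for mRNA sequencing without tying libraries to them, so the spread between these libraries, which p-values measure, may be partly technical.

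Hepatocytes secrete most proteins of blood plasma, among them albumin, the fibrinogen chains, transferrin and the apolipoproteins, and they take up, conjugate and export drugs and bile acids. This programme is driven by a set of transcription factors that includes the HNF1, HNF4, FOXA and C/EBP families. Enterocytes line the intestine as a tight sheet with a brush border of microvilli, are joined by claudins and occludin, and depend on the CDX factors. Intestinal epithelium shares with liver the HNF1 and HNF4 factors and the making of lipoproteins. In culture Caco-2 cells are known to take on enterocyte features with time.

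PolyA RNA was sequenced as cDNA on a Nanopore instrument, and a value counts reads per gene. The 8 libraries held 274857 to 1023029 reads and 9633 to 12625 detected genes. The deepest and the shallowest libraries were both from HepG2, control replicate 2 and FFA replicate 2. Values are in CPM, read counts scaled to the same total in every library, and so give the share of a library's reads that a gene takes, which means that a smaller share and less RNA of that gene per cell cannot be told apart. A single read was worth 0.978 to 3.64 CPM, and 3 reads over the 4 libraries of a line, the limit that a count of 0 allows, amounted to 1.39 CPM in HepG2 and 1.34 CPM in Caco-2, counting error only. CPM is not scaled by gene length and is compared here only within a gene. Log2 differences are HepG2 minus Caco-2 on the log2(CPM + 1) scale, which understates those of low genes. Across the tested genes, Pearson's r between libraries was 0.918 to 0.957 for replicates, 0.908 to 0.963 for the same line under the other treatment and 0.608 to 0.674 between lines. These coefficients are across genes, which are not independent replicates.

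The labels were checked first against markers of each line. All 5 HepG2 markers were far higher in every HepG2 library than in any Caco-2 library. ALB (albumin) took 7469.6, 6267, 6555 and 9536 CPM in the HepG2 libraries and 509, 490.0, 356 and 561 CPM in the Caco-2 libraries, given here and below in the order control 1, control 2, FFA 1, FFA 2. Its means were 7457 ± 1478 CPM in HepG2 and 479 ± 87.2 CPM in Caco-2 (SD, n = 4), which is 15.6-fold (limma, log2 difference 3.96, SE 0.14, adjusted p = 2.41e-10). AFP, the albumin-like protein of fetal liver, took 4106, 3664, 4692 and 6396 CPM in the HepG2 libraries and 293, 194, 195 and 229.8 CPM in the Caco-2 libraries (log2 difference 4.35, SE 0.13, adjusted p = 7.01e-11). APOA2, an apolipoprotein of high-density lipoprotein, took 12376, 12682, 11149 and 11806 CPM in the HepG2 libraries and 824, 841, 779 and 752 CPM in the Caco-2 libraries (log2 difference 3.91, SE 0.065, adjusted p = 4.40e-13). It had the smallest spread of the 5 in relation to its level. The fibrinogen chain FGA took 863, 676, 773 and 1048 CPM in the HepG2 libraries and 0, 2.35, 4.94 and 3.22 CPM in the Caco-2 libraries (log2 difference 8.10, SE 0.33, adjusted p = 5.82e-10), and FGB took 822, 673, 806 and 1106 CPM in the HepG2 libraries and 24.6, 5.88, 19.8 and 11.2 CPM in the Caco-2 libraries (log2 difference 5.85, SE 0.33, adjusted p = 1.35e-08).

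ALB, AFP and APOA2 were low in Caco-2 but well above the limit of a 0 count, at 6.42%, 4.84% and 6.66% of their HepG2 means. FGA and FGB stood at 0.313% and 1.81%. ALB and AFP lie side by side on chromosome 4, at chr4:73397114-73421482 and chr4:73431138-73456174 on the plus strand (GRCh38), and FGB and FGA at chr4:154563011-154572807, plus strand, and chr4:154583126-154590742, minus strand. APOA2 lies at chr1:161222292-161223631 on the minus strand.

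The Caco-2 markers were fewer and weaker. CDH17, a cadherin of intestinal epithelium, had no read in HepG2 and 92 reads in Caco-2, at 49.3, 31.7, 49.5 and 43.4 CPM, at least 31.2-fold higher (log2 difference -5.45, SE 0.38, adjusted p = 1.13e-07). VIL1, a bundler of actin in microvilli, took 20.9, 24.4, 18.8 and 14.5 CPM in the HepG2 libraries and 24.6, 36.4, 29.7 and 46.6 CPM in the Caco-2 libraries. The ranges of VIL1 did not overlap but the difference was small (log2 difference -0.76, SE 0.30, adjusted p = 0.0466), and it was not called without any of 5 of the libraries in turn, the largest of those p being 0.169 without Caco-2 FFA replicate 2. The VIL1 call was also lost in DESeq2 (adjusted p = 0.125), with no filter (0.0769), with a pseudocount of 0.1 (0.0522), after thinning to the shallowest library (log2 difference -0.45, adjusted p = 0.332), and in the control (0.433) or FFA libraries (0.0869) alone. The remaining 3 markers were below the floor of the test. CDX2, the master factor of intestinal identity, had 0 reads in HepG2 and 6 in Caco-2, KRT20, a keratin of mature colon cells, 0 and 8, and LGALS4, a galectin of intestinal epithelium, 1 and 0. Whether the reads listed for LGALS4 reflect its level or how its reads were assigned was not tested. CDH17 was the clear positive marker among the 5, but it reached the floor only through Caco-2, which fixed its direction.

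**Figure D1:**
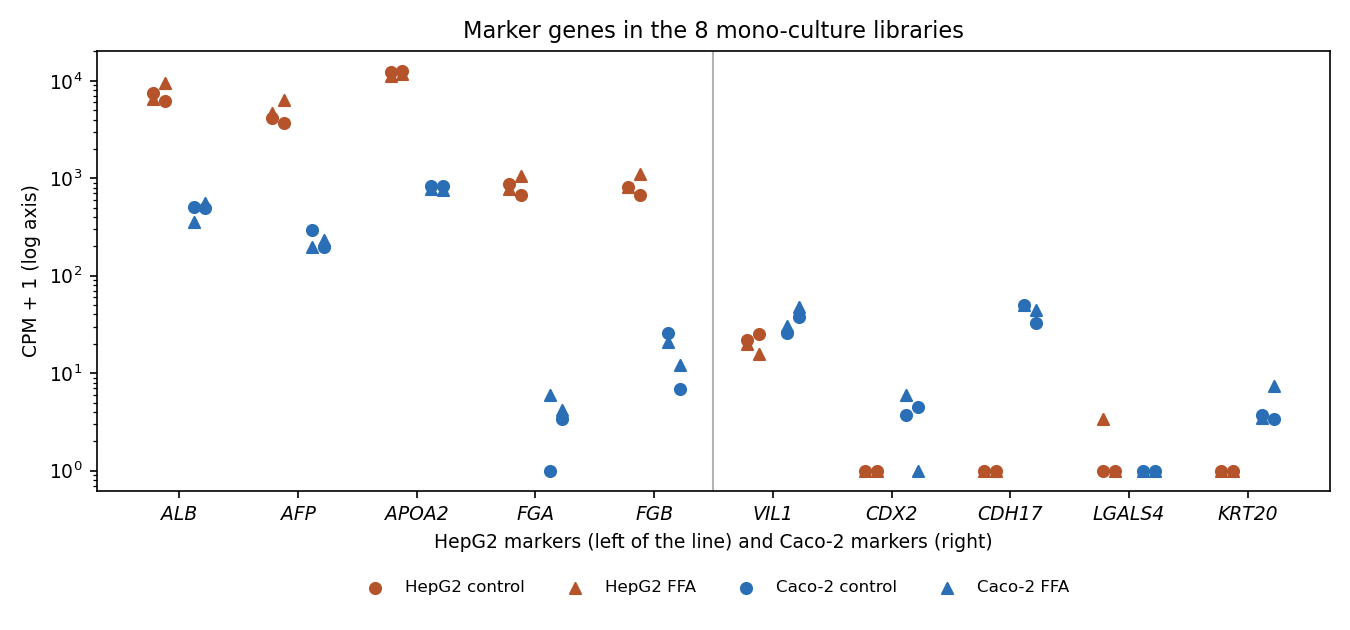
CPM + 1 on a log axis for the 5 HepG2 markers and the 5 Caco-2 markers, with 1 point per library (circles for control, triangles for FFA). The HepG2 and Caco-2 points are far apart for all 5 HepG2 markers and for CDH17, and are close together for VIL1, CDX2, LGALS4 and KRT20.

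The stretch just upstream of the RefSeq start of each HepG2 marker is shown because these promoters are where liver factors are known to act. Each line gives 70 bases, 5′ to 3′ on the gene's strand, from 100 to 31 bases before the start (RefSeq, GRCh38.p14). Capitals mark a match to the motif searched, on either strand. The positions are chr4:73404187-73404256 (plus), chr4:73436121-73436190 (plus), chr1:161223659-161223728 (minus), chr4:154590773-154590842 (minus) and chr4:154562880-154562949 (plus).
ALB: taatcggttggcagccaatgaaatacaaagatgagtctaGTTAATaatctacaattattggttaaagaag
AFP: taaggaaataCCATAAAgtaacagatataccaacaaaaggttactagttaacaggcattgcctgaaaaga
APOA2: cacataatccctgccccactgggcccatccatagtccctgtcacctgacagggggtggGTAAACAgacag
FGA: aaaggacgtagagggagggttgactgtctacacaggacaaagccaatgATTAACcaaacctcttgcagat
FGB: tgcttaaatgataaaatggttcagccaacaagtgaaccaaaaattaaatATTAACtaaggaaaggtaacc
The letters GTTAAT, the core of an HNF1 site, were found starting 61 bases before the start of ALB, and on the opposite strand 52 bases before FGA and 51 before FGB. AFP held the same letters 132 bases before its start, outside the stretch shown, and CCATAAA, a CDX motif, 90 bases before it. APOA2 held TGTTTAC, a FOXA motif, on the opposite strand, 42 bases before its start. Over the 250 bases before the start of all 27305 RefSeq promoters, on both strands, GTTAAT was held by 6.22%, TGTTTAC by 2.98%, CCATAAA by 2.43%, CAAAGTCCA (HNF4) by 0.293% and TTGCGCAA (C/EBP) by 0.110%. None of these motifs contains another, and a match describes letters only.

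The same stretch is shown for CLDN7, a junction gene with no read in HepG2, at chr17:7263244-7263313 (minus). It held none of the 5 motifs in the 250 bases before its start. The same search found none for SERPINA3 and AMBP, both higher in HepG2, nor for LDHB and LGALS4. None was found for TF either, but its RefSeq stretch, at chr3:133661898-133661967, lies far upstream of its GENCODE start at chr3:133746040. The search thus did not cover the bases next to that GENCODE start. On either strand TGTTTAC was found for GSTP1 and CDX2, GTTAAT for KRT20 and CCATAAA for S100A14. A match was thus not limited to genes higher in HepG2.
CLDN7: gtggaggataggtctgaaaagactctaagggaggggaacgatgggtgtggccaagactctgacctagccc

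Over all genes, 1440 of 5322 (27.1%) were higher in HepG2 and 1405 (26.4%) higher in Caco-2 (limma, Benjamini-Hochberg adjusted p under 0.05). The libraries of the lines did not overlap for 1265 genes above in HepG2 (23.8%) and 1230 above in Caco-2 (23.1%), and the median log2 difference over all tested genes was 0.018. At least 2-fold differences were seen for 1023 genes higher in HepG2 and 943 higher in Caco-2, at least 10-fold for 152 and 195, and at least 100-fold for 23 and 16. Of the called genes, 37 had no read in any Caco-2 library and 58 had none in any HepG2 library. A gene that reached the floor only through the line where it was high had to differ. Among the 4092 genes with a mean of at least 10 in each line, 1931 were called.

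**Figure D2:**
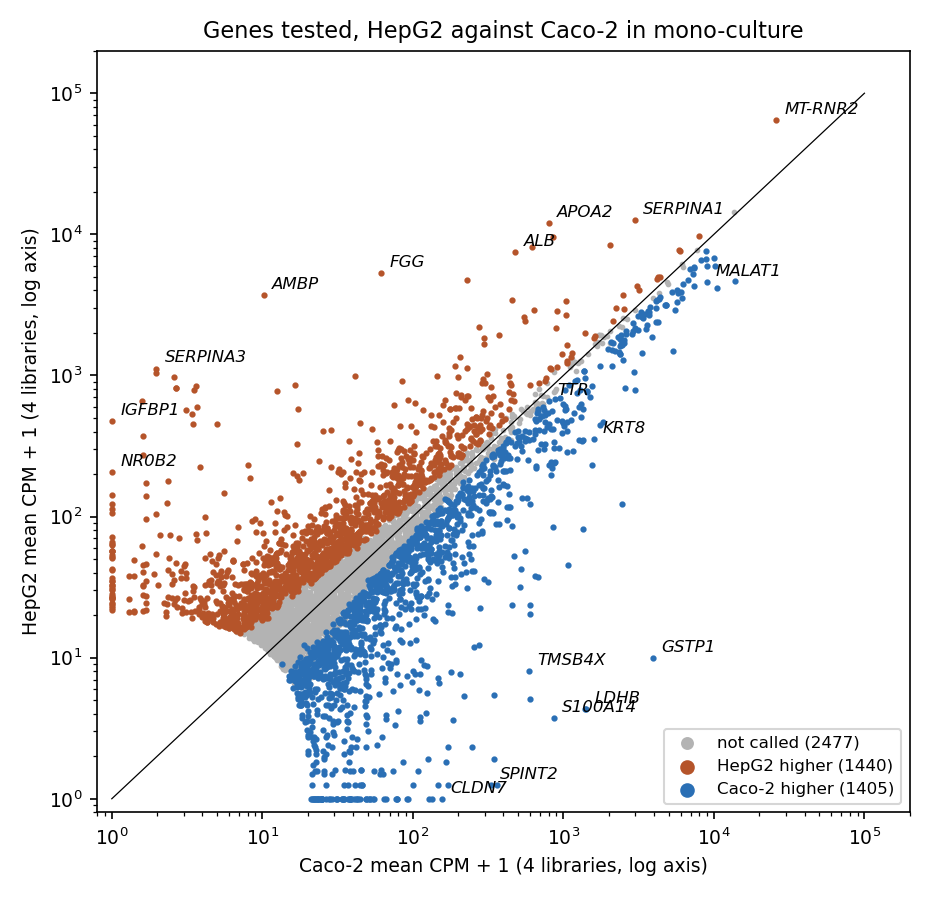
Mean CPM + 1 of each of the 5322 tested genes in HepG2 (vertical) against Caco-2 (horizontal), n = 4 libraries each, on log axes with the line of equality. The 1440 genes higher in HepG2 and the 1405 higher in Caco-2 spread to either side, with SERPINA3, IGFBP1 and AMBP among the farthest on the HepG2 side and GSTP1, LDHB and S100A14 on the Caco-2 side.

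Genes for secreted plasma proteins were prominent on the HepG2 side. Among plasma carrier proteins, 11 of 13 tested genes were higher in HepG2, 1 was higher in Caco-2 and 1 was not called, with a median log2 difference of 2.62. The list holds 20 genes, and 9 genes reached the floor in each line, with 8 higher in HepG2 and 1 in Caco-2. As a sum, the list took 3.06 to 4.17% of the reads of a HepG2 library and 0.593 to 0.684% of those of a Caco-2 library.

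SERPINA3 (alpha-1-antichymotrypsin), a protease inhibitor of the acute phase, had the largest difference of all on the log2(CPM + 1) scale, with 1207, 1219, 989 and 1048 CPM in the HepG2 libraries and 2.74, 1.17, 0 and 0 CPM in the Caco-2 libraries (log2 difference 9.36, SE 0.23, adjusted p = 1.01e-11). An overlapping readthrough gene, AL049839.2, was listed with 2283 reads over the 8 libraries against 2477 for SERPINA3, and the reads may be shared. TF, the iron carrier transferrin, was at 981 ± 118 CPM in HepG2 and 1.61 ± 1.14 CPM in Caco-2 (log2 difference 8.70, SE 0.32, adjusted p = 3.13e-10), and AMBP, the precursor of alpha-1-microglobulin and bikunin, at 3726 ± 389 CPM in HepG2 and 9.19 ± 2.90 CPM in Caco-2 (log2 difference 8.55, SE 0.18, adjusted p = 3.66e-12). The Caco-2 means of these 3 were 0.0876 to 0.247% of those in HepG2.

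SERPINA1 (alpha-1-antitrypsin) differed less, at 12602 ± 1171 CPM in HepG2 and 2979 ± 315 CPM in Caco-2, with Caco-2 at 23.6% of the HepG2 mean. SERPINA7, the thyroxine-binding globulin, was at 178 CPM in HepG2 and 1.37 CPM in Caco-2. TTR, which carries thyroxine and retinol-binding protein, ran the other way with overlapping groups, at 822, 765, 542 and 498 CPM in the HepG2 libraries and 783, 769, 913 and 752 CPM in the Caco-2 libraries (log2 difference -0.32, SE 0.089, adjusted p = 0.00878). It was not called with cell line as the only term (adjusted p = 0.0811). The TTR difference was 0.032 in the control libraries alone and -0.67 in the FFA libraries alone. HPX, the haem scavenger, was not called (log2 difference 0.82, adjusted p = 0.0956), and was called without HepG2 FFA replicate 1 (1.06, adjusted p = 0.0432).

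IGFBP1, a secreted binder of insulin-like growth factors, had 325, 328, 511 and 728 CPM in HepG2 and no read in Caco-2, at least 354-fold higher. The secreted A2M, a broad protease inhibitor, was at 594 CPM in HepG2 and 2.68 CPM in Caco-2, FGL1, a fibrinogen-like protein of liver, at 449.9 CPM in HepG2 and 2.48 CPM in Caco-2, and BPIFB2 at 369 CPM in HepG2 and 0.62 CPM in Caco-2. Log2 differences of these 3 were 7.96, 7.95 and 8.08. IFITM3, an interferon-induced restriction factor of viral entry, was also among the farthest on the HepG2 side at 656 CPM in HepG2 and 0.588 CPM in Caco-2.

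Apolipoproteins divided between the lines. Of the 22 genes listed, 13 were tested, of which 8 were higher in HepG2, 4 were higher in Caco-2 and 1 was not called (median log2 difference 0.98). DESeq2 called 8 of the list higher in HepG2 and 2 in Caco-2. In co-culture, with 14 tested, 10 were higher in HepG2 and 2 in Caco-2, with a median of 1.48. APOC2, the cofactor of lipoprotein lipase, was at 816 CPM in HepG2 and 1.67 CPM in Caco-2 (log2 difference 8.41), with values identical to those of its readthrough gene APOC4-APOC2. APOB, the structural protein of very-low-density lipoprotein and chylomicrons, was at 230.0 ± 58.6 CPM in HepG2 and 7.04 ± 3.40 CPM in Caco-2 (log2 difference 4.93, SE 0.28, adjusted p = 1.37e-08). LCAT, which esterifies plasma cholesterol, was at 38.1 CPM in HepG2 and 0.912 CPM in Caco-2, and APOM, a carrier of sphingosine-1-phosphate, at 919 CPM in HepG2 and 83.6 CPM in Caco-2. In Caco-2, by contrast, APOD, which is not on the list, was high at 0.245 ± 0.49 CPM in HepG2 and 360.4 ± 126 CPM in Caco-2 (log2 difference -8.18, SE 0.37, adjusted p = 1.91e-09). PLTP, which transfers phospholipids between lipoproteins, was at 47.6 CPM in Caco-2 and 6.11 CPM in HepG2. APOE, a ligand of lipoprotein receptors, was at 65.00, 33.2, 44.8 and 50.9 CPM in the HepG2 libraries and 159, 155, 114 and 125 CPM in the Caco-2 libraries (log2 difference -1.52, SE 0.20, adjusted p = 4.10e-05).

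APOA1 and APOC3, genes that liver and intestine both express, were chosen after their values were seen. APOA1 was at 4269 ± 646 CPM in HepG2 and 3085 ± 247 CPM in Caco-2, a small difference (log2 difference 0.46, SE 0.10, adjusted p = 0.00226). APOC3 was slightly higher in Caco-2 with overlapping groups (log2 difference -0.52, SE 0.16, adjusted p = 0.0175), and lost its call without Caco-2 control replicate 1 (adjusted p = 0.0902), Caco-2 FFA replicate 1 (0.114), HepG2 control replicate 2 (0.0767) or HepG2 FFA replicate 2 (0.0719).

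Clotting genes were mostly on the HepG2 side. Of the 29 genes listed, 16 were tested, of which 13 were higher in HepG2, 3 were higher in Caco-2 and 0 were not called (median log2 difference 4.25). In that list 6 genes reached the floor in each line, with 5 higher in HepG2 and 1 in Caco-2. FGG, the third fibrinogen chain, was at 5991, 4819.9, 5036 and 5319 CPM in the HepG2 libraries and 68.4, 43.5, 76.7 and 54.6 CPM in the Caco-2 libraries (log2 difference 6.45). CPB2, an inhibitor of clot lysis, was at 61.9 CPM in HepG2 and at 0 in Caco-2, at least 46.2-fold higher. The 3 genes on the Caco-2 side were KNG1, F12 and VTN. KNG1 (kininogen) and F12 (factor XII), partners in the contact system, had no read in HepG2, whereas KNG1 took 35.6, 32.9, 46.98 and 33.7 CPM in the Caco-2 libraries and F12 averaged 20.96 CPM. VTN (vitronectin), named here after its values were seen, was at 468 ± 66.03 CPM in HepG2 and 1057 ± 129 CPM in Caco-2.

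Tested complement and acute phase genes were mostly on the HepG2 side, but not those that reached the floor in each line. Of the 38 genes listed, 16 were tested, of which 12 were higher in HepG2, 1 was higher in Caco-2 and 3 were not called (median log2 difference 4.65). Of these, 6 genes reached the floor in each line, with 2 higher in HepG2 and 1 in Caco-2, and their median was -0.038. CFI, HP, C3 and ITIH3 reached it only through HepG2, which fixed their direction. CFI, the protease that inactivates C3b, was at 121 CPM in HepG2 with no read in Caco-2. HP (haptoglobin) was at 138 CPM in HepG2 and 0.685 CPM in Caco-2, and C3, the central complement component, at 222 ± 25.01 CPM in HepG2 and 2.88 ± 1.31 CPM in Caco-2 (log2 difference 5.90, SE 0.28, adjusted p = 3.10e-09). ITIH3, a hyaluronan-binding plasma protein, was at 41.3 CPM against no read. CD55, a membrane protein that shields cells from complement, was the gene higher in Caco-2, at 140.0 CPM in Caco-2 and 17.3 CPM in HepG2 (log2 difference -3.11). C4BPB was not called (log2 difference -0.092, adjusted p = 0.577).

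Transcription factors were mostly below the floor of the test at this depth. Of the 21 hepatocyte factors 2 were tested, and both reached the floor only through HepG2, so that their direction was fixed by it. NR0B2, a repressor induced by bile acids, took 218, 174, 205 and 222 CPM in HepG2 and had no read in Caco-2, at least 153-fold higher (log2 difference 7.68, SE 0.34, adjusted p = 1.42e-09). NR1H4, the bile acid receptor, was at 19.8 CPM in HepG2 and 1.92 CPM in Caco-2 (log2 difference 3.25, SE 0.59, adjusted p = 4.64e-04). The untested factors, named after their values were seen, had few reads in either line. HNF4A had 7 reads in HepG2 and 22 in Caco-2, CEBPA 10 and 27, and FOXA2 1 and 4, and FOXA1 and CDX1 had none. ELF3, an epithelial factor of the intestine, was the only tested member of 22 on the intestinal list and reached the floor through Caco-2, at 63.9 CPM in Caco-2 and 5.71 CPM in HepG2 (log2 difference -3.37, SE 0.40, adjusted p = 1.37e-05).

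All 11 called genes of epithelial junctions were higher in Caco-2. Of the 37 genes listed, 14 were tested, of which 0 were higher in HepG2, 11 were higher in Caco-2 and 3 were not called (median log2 difference -2.61). In each line 7 genes reached the floor, with 0 higher in HepG2 and 4 in Caco-2, and their median was -1.85. CDH17, CLDN7, LAMB3 and OCLN reached it only through Caco-2, which fixed their direction. CLDN7, a claudin of tight junctions, took 161, 139, 176 and 146 CPM in Caco-2 and had no read in HepG2, at least 112-fold higher (log2 difference -7.28, SE 0.35, adjusted p = 3.43e-09). CLDN4 was at 37.05 ± 12.9 CPM in HepG2 and 649.7 ± 110.1 CPM in Caco-2 (log2 difference -4.14), OCLN (occludin) at 47.8 CPM in Caco-2 and 2.38 CPM in HepG2 (-4.34), and LAMB3, a chain of the epithelial laminin, at 53.8 CPM in Caco-2 against no read. EPCAM, an adhesion molecule of most epithelia that was picked after its value was seen, was at 874 CPM in Caco-2 and 244 CPM in HepG2 (-1.85). TJP1, a scaffold of tight junctions, was not called (-0.66, adjusted p = 0.0852) except without Caco-2 FFA replicate 2 (-0.94, adjusted p = 0.0295).

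The list of keratins, actins and actin binding proteins was the next. Of the 28 genes listed, 21 were tested, of which 2 were higher in HepG2, 17 were higher in Caco-2 and 2 were not called (median log2 difference -1.39). KRT19 was at 36.02 ± 11.6 CPM in HepG2 and 678 ± 108 CPM in Caco-2 (log2 difference -4.24, SE 0.20, adjusted p = 3.34e-09). TMSB4X, which sequesters actin monomers, was at 7.08 ± 5.06 CPM in HepG2 and 592 ± 50.3 CPM in Caco-2 (log2 difference -6.69, SE 0.47, adjusted p = 1.05e-07), and TAGLN2 and MYL9, an actin-bundling protein and a myosin light chain, had log2 differences of -5.22 and -4.36. KRT8 and KRT18, the keratin pair of simple epithelia including hepatocytes, were picked after their values were seen. KRT8 was at 1600.2 CPM in Caco-2 and 354 CPM in HepG2, and KRT18 at 1264 CPM in Caco-2 and 345 CPM in HepG2. The 2 genes higher in HepG2 were ACTA2, smooth muscle actin, at 29.2 CPM against no read, and PFN1 (profilin) at 386 CPM in HepG2 and 263 CPM in Caco-2. VIM (vimentin) was listed at 0 in all 8 libraries, and whether this reflects its level or the counting was not tested.

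S100 proteins, annexins and galectins went the same way. Of the 27 genes listed, 17 were tested, of which 3 were higher in HepG2, 12 were higher in Caco-2 and 2 were not called (median log2 difference -1.48). S100A14 took 2.32, 4.89, 0 and 3.64 CPM in the HepG2 libraries and 887, 799, 937 and 834 CPM in the Caco-2 libraries (log2 difference -8.13, SE 0.38, adjusted p = 2.94e-09), ANXA3 and LGALS3 had log2 differences of -4.87 and -4.86, and S100A4 of -4.69. S100A10 and ANXA2, which form a complex at the membrane, were picked after their values were seen. S100A10 was at 2463 CPM in Caco-2 and 122 CPM in HepG2, and ANXA2 at 1357 CPM in Caco-2 and 80.5 CPM in HepG2. HepG2 was higher for LGALS1 (galectin-1), at 69.4 CPM in HepG2 and 1.79 CPM in Caco-2, and for ANXA6, at 34.5 CPM in HepG2 and 1.61 CPM in Caco-2.

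Brush border genes were less uniform. Of the 36 genes listed, 9 were tested, of which 2 were higher in HepG2, 5 were higher in Caco-2 and 2 were not called (median log2 difference -0.80). In each line 5 genes reached the floor, with 1 higher in HepG2 and 3 in Caco-2, and their median was -0.76. USH1C, which links microvilli at their tips, and GUCA2A (guanylin) had no read in HepG2 and averaged 29.7 and 27.03 CPM in Caco-2. EZR (ezrin), the link from actin to the microvillus membrane, was at 226 CPM in Caco-2 and 30.04 CPM in HepG2, and DPP4, a brush border peptidase also made by liver, at 84.8 CPM in Caco-2 and 32.1 CPM in HepG2. FABP1, the fatty acid binding protein of liver and small intestine, was on the HepG2 side at 9538 ± 1398 CPM in HepG2 and 857 ± 163 CPM in Caco-2 (log2 difference 3.48, SE 0.12, adjusted p = 2.22e-10), and it made up most of this list's reads in both lines. SLC2A2, the glucose transporter GLUT2 of liver and gut, took 34.8, 20.5, 32.97 and 0 CPM in HepG2 and had no read in Caco-2 (adjusted p = 0.00217, and 0.151 in DESeq2), the groups overlapping at 0 in 1 library. SI, LCT and MUC2, classical genes of differentiated enterocytes and goblet cells that were not tested, had 1, 0 and 0 reads in Caco-2.

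The small list of mucins and secretory cells went both ways. Of the 29 genes listed, 7 were tested, of which 2 were higher in HepG2, 4 were higher in Caco-2 and 1 was not called (median log2 difference -3.36). Of the list 4 genes reached the floor in each line, with 2 higher in HepG2 and 1 in Caco-2, and their median was 0.43. PHGR1, AGR3 and TFF1 reached the floor only through Caco-2. PHGR1 and AGR3 had no read in HepG2 and averaged 42.4 and 25.5 CPM in Caco-2. AGR2, a disulphide isomerase needed for mucin folding, was at 83.7 ± 25.1 CPM in HepG2 and 846 ± 66.9 CPM in Caco-2 (log2 difference -3.36, SE 0.12, adjusted p = 1.90e-10), and TFF1, a trefoil peptide of mucus, had a log2 difference of -3.85. LYZ (lysozyme), a product of Paneth cells and of macrophages, was on the HepG2 side, at 719.6, 782, 737 and 859 CPM in the HepG2 libraries and 10.9, 5.88, 14.8 and 14.5 CPM in the Caco-2 libraries (log2 difference 6.02, SE 0.18, adjusted p = 7.01e-11). TFF3 was slightly higher in HepG2 with overlapping groups (log2 difference 0.66, SE 0.17, adjusted p = 0.00553).

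**Figure D3:**
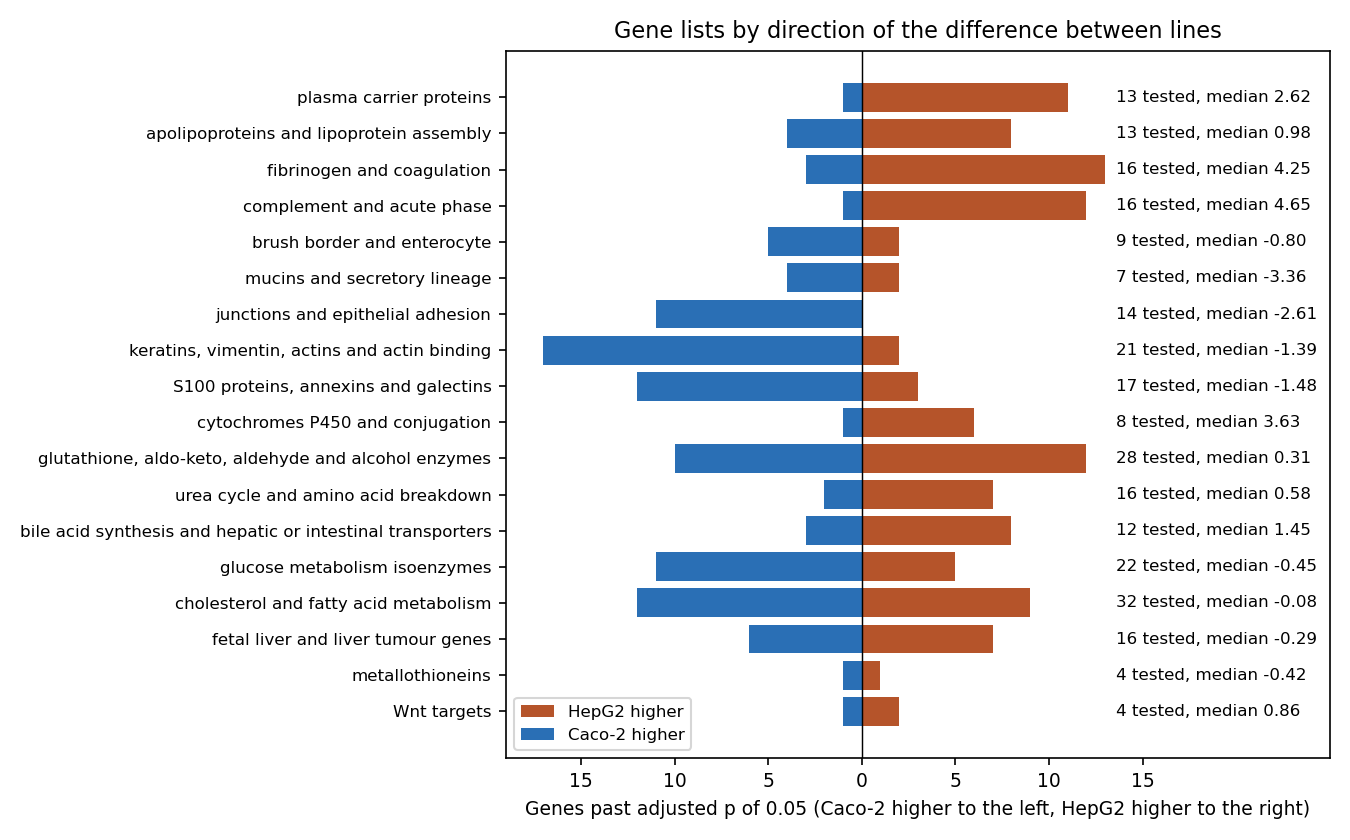
Number of genes of each list past an adjusted p of 0.05, higher in Caco-2 to the left and higher in HepG2 to the right, with the number tested and the median log2 difference (HepG2 minus Caco-2). Plasma carriers, coagulation and complement lean to HepG2, and junctions, keratins and actins, and S100 proteins to Caco-2. Of the complement genes that reached the floor in each line, 2 were higher in HepG2 and 1 in Caco-2.

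Most tested enzymes that conjugate drugs reached the floor of the test only through HepG2, which fixed their direction. Of the 43 genes listed, 8 were tested, of which 6 were higher in HepG2, 1 was higher in Caco-2 and 1 was not called (median log2 difference 3.63). In this list 2 genes reached the floor in each line, with 1 higher in HepG2 and 1 in Caco-2, with a median of 0.17. SULT1A1, a phenol sulphotransferase, was at 104 CPM in HepG2 and 0.977 CPM in Caco-2. Its close relative SULT1A2, with which reads may be shared, was at 65.2 CPM in HepG2 with no read in Caco-2. UGT2B10 and UGT2B7 belong to a family of near-identical liver glucuronosyltransferases. UGT2B10 was at 50.04 CPM in HepG2 with no read in Caco-2, and UGT2B7 at 22.8 CPM in HepG2 and 1.61 CPM in Caco-2. SULT2A1, which sulphates bile acids and steroids, was at 53.6 CPM in HepG2 and 3.48 CPM in Caco-2 (3.97 on the log2 scale). CYP51A1, an enzyme of sterol synthesis, was the gene higher in Caco-2 (log2 difference -0.57, SE 0.19, adjusted p = 0.0266), a call lost without any of 6 libraries in turn, with p between 0.0524 and 0.129. CYP3A4 and CYP2E1, major drug-metabolising cytochromes of adult liver that were not tested, had no read in either line.

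Glutathione and related redox enzymes were split almost evenly. Of the 41 genes listed, 28 were tested, of which 12 were higher in HepG2, 10 were higher in Caco-2 and 6 were not called (median log2 difference 0.31). GSTP1, the pi-class glutathione transferase, took 16.2, 2.94, 9.42 and 7.28 CPM in the HepG2 libraries and 4081, 4061, 3588 and 4017 CPM in the Caco-2 libraries (log2 difference -8.81, SE 0.32, adjusted p = 2.92e-10), the largest difference on the Caco-2 side on the log2(CPM + 1) scale. By ratio of means GSTP1 was 439-fold higher, below APOD at 1471-fold, SPINT2 at 1349-fold and FOLR1 at 693-fold. Those 3 each had 1 read in HepG2. GSTP1 lies at chr11:67583742-67586656 on the plus strand. GSTA1 and GSTA2, near-identical alpha-class transferases between which reads may be split, had log2 differences of -4.58 and -5.08. On the HepG2 side, GPX2, a glutathione peroxidase known from the gut, was at 996 ± 84.1 CPM in HepG2 and 40.4 ± 16.1 CPM in Caco-2 (log2 difference 4.67, SE 0.12, adjusted p = 1.21e-11), and AKR1B10, an aldo-keto reductase, was at 39.6 CPM in HepG2 and 0.62 CPM in Caco-2.

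More genes of glucose metabolism were higher in Caco-2 than in HepG2. Of the 42 genes listed, 22 were tested, of which 5 were higher in HepG2, 11 were higher in Caco-2 and 6 were not called (median log2 difference -0.45). In the co-culture libraries the counts were 6 higher in HepG2 and 7 in Caco-2, with a median of -0.18. LDHB, the heart-type lactate dehydrogenase, took 2.32, 4.89, 2.36 and 3.64 CPM in the HepG2 libraries and 1450.5, 1369, 1370.0 and 1445 CPM in the Caco-2 libraries (log2 difference -8.40, SE 0.21, adjusted p = 9.49e-12). An overlapping gene, AC010197.2, was listed with 3127 reads against 3156 for LDHB, and the reads may be shared. LDHA, the muscle-type subunit of the same enzyme, was at 302 ± 42.6 CPM in HepG2 and 336 ± 41.1 CPM in Caco-2 and was not called (log2 difference -0.16, adjusted p = 0.227). The means of LDHB were 427-fold apart, while those of LDHA differed by less than the spread between libraries. SLC2A3, the glucose transporter GLUT3, was at 72.7 CPM in Caco-2 and 0.58 CPM in HepG2, and ALDOC had a log2 difference of -3.92. HepG2 was higher for KHK, which phosphorylates fructose, at 39.9 CPM in HepG2 and 1.89 CPM in Caco-2. PCK2, the mitochondrial phosphoenolpyruvate carboxykinase, was at 193 CPM in HepG2 and 16.1 CPM in Caco-2.

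Enzymes of amino acid breakdown went both ways. Of the 33 genes listed, 16 were tested, of which 7 were higher in HepG2, 2 were higher in Caco-2 and 7 were not called (median log2 difference 0.58). Here 11 genes reached the floor in each line, with 3 higher in HepG2 and 2 in Caco-2, and their median was -0.21. DESeq2 called 4 of the list higher in HepG2 and 2 in Caco-2. HPD, an enzyme of tyrosine breakdown, was at 94.7 CPM in HepG2 and 0.685 CPM in Caco-2. DDC, which decarboxylates aromatic amino acids, and ASL of the urea cycle had log2 differences of 2.30 and 1.40. Neither was called in the FFA libraries alone (limma adjusted p = 0.0503 and 0.287) or in co-culture (log2 differences 0.20 and -0.024). The DDC call was also lost with a pseudocount of 0.1 (limma adjusted p = 0.0727), and the ASL call in DESeq2 (adjusted p = 0.0673). ASS1, which precedes ASL in the cycle, and GOT1, a transaminase, were higher in Caco-2 (-0.90 and -0.62). ARG1 had no read in either line and CPS1 had 2 reads, both in HepG2. ARG1 and CPS1, both of the urea cycle, were not tested.

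More transporters and bile acid genes were higher in HepG2 than in Caco-2. Of the 36 genes listed, 12 were tested, of which 8 were higher in HepG2, 3 were higher in Caco-2 and 1 was not called (median log2 difference 1.45). In co-culture these counts were 5 and 4, with a median of 0.50. In mono-culture 5 genes reached the floor in each line, with 3 higher in HepG2 and 1 in Caco-2, and their median was 0.50. SLC47A1, which exports organic cations, was at 123 CPM in HepG2 and 1.31 CPM in Caco-2, and ASGR1, the hepatocyte receptor for desialylated glycoproteins, at 400.2 ± 37.6 CPM in HepG2 and 24.2 ± 8.76 CPM in Caco-2 (log2 difference 4.07, SE 0.22, adjusted p = 1.17e-08). ABCB1, the drug pump P-glycoprotein, and CYP27A1, a sterol hydroxylase of bile acid synthesis, had log2 differences of 2.95 and 2.59. SLCO2B1, an organic anion importer, was higher in Caco-2 (-3.88). CYP7A1, the rate-limiting enzyme of bile acid synthesis, was not tested, with 7 reads in HepG2 and none in Caco-2.

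Genes of lipid metabolism were divided between the lines. Of the 48 genes listed, 32 were tested, of which 9 were higher in HepG2, 12 were higher in Caco-2 and 11 were not called (median log2 difference -0.08). INSIG1, a brake on sterol synthesis, was at 0, 0.98, 0 and 0 CPM in the HepG2 libraries and 164, 110.5, 131 and 177 CPM in the Caco-2 libraries (log2 difference -6.93, SE 0.38, adjusted p = 1.30e-08). CPT1A, CIDEC and MVD, which serve fatty acid oxidation, lipid droplets and sterol synthesis, were higher in Caco-2, with log2 differences of -4.12, -3.23 and -2.25. HMGCS1 of the same sterol pathway, picked after its values were seen, stood at -1.74. G0S2, an inhibitor of fat breakdown, had no read in HepG2 and averaged 132 CPM in Caco-2. PLIN2, the coat of lipid droplets, likewise picked after its values were seen, was higher in HepG2, at 174, 164, 203 and 397 CPM in the HepG2 libraries and 65.7, 34.1, 61.8 and 81.96 CPM in the Caco-2 libraries (log2 difference 1.90). Of the 8 libraries, HepG2 FFA replicate 2 held the highest PLIN2 level.

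Genes linked to fetal liver or liver tumours were divided as well. Of the 23 genes listed, 16 were tested, of which 7 were higher in HepG2, 6 were higher in Caco-2 and 3 were not called (median log2 difference -0.29). The imprinted gene DLK1 was at 48.4 CPM in HepG2 and 0.4 CPM in Caco-2. PEG3, also imprinted, and SPP1 (osteopontin) averaged 27.4 and 142 CPM in HepG2 with no read in Caco-2. TSPAN8 and the Wnt inhibitor DKK1 were on the Caco-2 side, with log2 differences of -4.16 and -7.40. Of 20 Wnt targets, DKK1 among them, 4 were tested. NOTUM and MYC were higher in HepG2 (3.36 and 1.98), DKK1 was higher in Caco-2 and 1 was not called. Of 9 metallothioneins 4 were tested, and MT1E was higher in HepG2 (3.22) and MT1X in Caco-2 (-2.11). These metallothioneins are near-identical copies between which reads may be split.

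The largest differences on the Caco-2 side also included genes outside these lists. SPINT2, an inhibitor of membrane serine proteases, took 0, 0.98, 0 and 0 CPM in the HepG2 libraries and 356, 282, 356 and 328 CPM in the Caco-2 libraries (log2 difference -8.12, SE 0.34, adjusted p = 7.15e-10). An overlapping gene, AC011479.1, was listed with 761 reads against 719 for SPINT2, and the reads may be shared. SLC7A7, a basolateral amino acid transporter, was at 346 CPM in Caco-2 and 0.91 CPM in HepG2, FOLR1, a folate receptor, had a log2 difference of -7.16, and TPD52L1 of -7.01. For SPINT2, SLC7A7, FOLR1 and TPD52L1 the libraries of the lines did not overlap.

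Levels of liver genes in Caco-2 did not stand in a fixed ratio to those in HepG2. The Caco-2 mean was 23.6% of the HepG2 mean for SERPINA1, 8.99% for FABP1 and 6.66% for APOA2, but 1.15% for FGG, 0.247% for AMBP, 0.164% for TF and 0.0876% for SERPINA3. IGFBP1 was at 0. In reverse, GSTP1 and LDHB, at 3937 and 1409 CPM in Caco-2, were at 8.97 and 3.30 CPM in HepG2.

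Library composition differed between the lines. The 10 most abundant genes held 15.6 ± 0.594% of HepG2 reads and 12.03 ± 0.405% of Caco-2 reads (SD, n = 4), a difference of 3.54 percentage points (exact two-sided permutation test, p = 0.0286, the smallest that 70 splits allow). A further share left mitochondrial genes out of the 10 but kept their reads in the library total. It was 9.71 ± 0.402% in HepG2 and 10.3 ± 0.186% in Caco-2 (exact p = 0.0286). In co-culture it was 10.16 ± 0.629% and 9.77 ± 0.420% (exact p = 0.371). Mitochondrial reads took a larger part of that total in HepG2, which lowers this share there. Shares of the non-mitochondrial reads alone were not tested. The 100 most abundant genes held 48.4 ± 1.82% and 48.3 ± 1.41% (exact p = 0.971).

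Mitochondrial transcripts took 9.99 ± 0.636% of HepG2 reads and 3.28 ± 0.631% of Caco-2 reads (exact p = 0.0286). All 16 tested genes of the mitochondrial genome were higher in HepG2, with a median log2 difference of 2.44, and 15 of 16 under quantile normalization, where MT-RNR2 came out at 0. MT-CO2, a subunit of cytochrome c oxidase, was at 8080.1 ± 758 CPM in HepG2 and 615 ± 291 CPM in Caco-2 (log2 difference 3.83, SE 0.15, adjusted p = 3.61e-10), and MT-RNR2, the large ribosomal RNA of mitochondria, at 64413 ± 7539 CPM in HepG2 and 25897 ± 4206 CPM in Caco-2. Ribosomal protein genes went the other way, with 30 ± 1.30% of Caco-2 reads and 23.7 ± 1.94% of HepG2 reads (exact p = 0.0286). Of 81 tested, 53 were higher in Caco-2 and 11 in HepG2, the latter 4 under median-ratio or TMM rescaling and 14 under quantile normalization. RPS3 was at 4644 ± 174 CPM in HepG2 and 13896 ± 315 CPM in Caco-2 (log2 difference -1.58, SE 0.062, adjusted p = 4.63e-10), and the noncoding MALAT1 at 4594 ± 473 CPM in HepG2 and 9004 ± 1512 CPM in Caco-2. Of 169 processed pseudogenes, 55 were higher in Caco-2 and 11 in HepG2, and their reads may come from the genes they copy.

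Whether the line difference changed with FFA was tested as an interaction in the same fit, and no gene passed (0 of 5322, 0.00%). At an unadjusted p under 0.05 there were 407 genes, and edgeR and DESeq2 on the recovered reads each called 1 gene, MT-CYB, which encodes cytochrome b. MT-CYB, named after its values were seen, took 1288, 1262, 1453 and 1379 CPM in the HepG2 libraries and 126, 112, 309 and 276 CPM in the Caco-2 libraries. The HepG2 libraries stood close together and the Caco-2 FFA libraries above the Caco-2 controls, so that the log2 difference was 3.42 without FFA and 2.27 with FFA (limma interaction -1.14, SE 0.18, adjusted p = 0.155, against adjusted p = 0.0216 in edgeR and 0.0155 in DESeq2). Without HepG2 FFA replicate 1 the limma interaction called 27 genes, and without HepG2 FFA replicate 2 it called TMSB4X alone.

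No marker passed the interaction test. For ALB the log2 difference was 3.77 in the control libraries and 4.14 in the FFA libraries, for AFP 4.02 and 4.69, for APOA2 3.91 and 3.90, and for FGB 5.81 and 5.89. For FGA it was 8.71 and 7.49, for GSTP1 -8.95 and -8.68, and for CLDN7 -7.23 and -7.33.

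The same contrast in the 8 co-culture libraries, which share no library with the mono-culture ones, mostly kept its direction. Of the 2845 genes called in mono-culture, 2623 (92.2%) had the same sign in co-culture and 1662 (58.4%) were also called there with that sign, which is 84.7% of the 1962 mono-culture-tested genes called in co-culture. The 2 HepG2 co-culture FFA libraries held 147096 and 49634 reads, fewer than any mono-culture library, so that 1 read was worth 6.80 and 20.15 CPM in them. In the 4 co-culture control libraries alone, a choice made after seeing the data, 2697 (94.8%) had the same sign and 1859 (65.3%) were also called with it. ALB, AFP and APOA2 differed by 3.98, 3.95 and 3.68 on the log2 scale in co-culture, GSTP1 by -9.48 and CLDN7 by -6.87. FABP1 differed by 2.25. APOE turned its direction, from -1.52 in mono-culture to 0.85 in co-culture (limma adjusted p = 0.0108), and stood at 0.20 in the co-culture controls alone (adjusted p = 0.582). VIL1 was not called in all 8 co-culture libraries (-0.33, adjusted p = 0.342) and was called in their controls alone (-1.10, adjusted p = 0.0138).

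**Figure D4:**
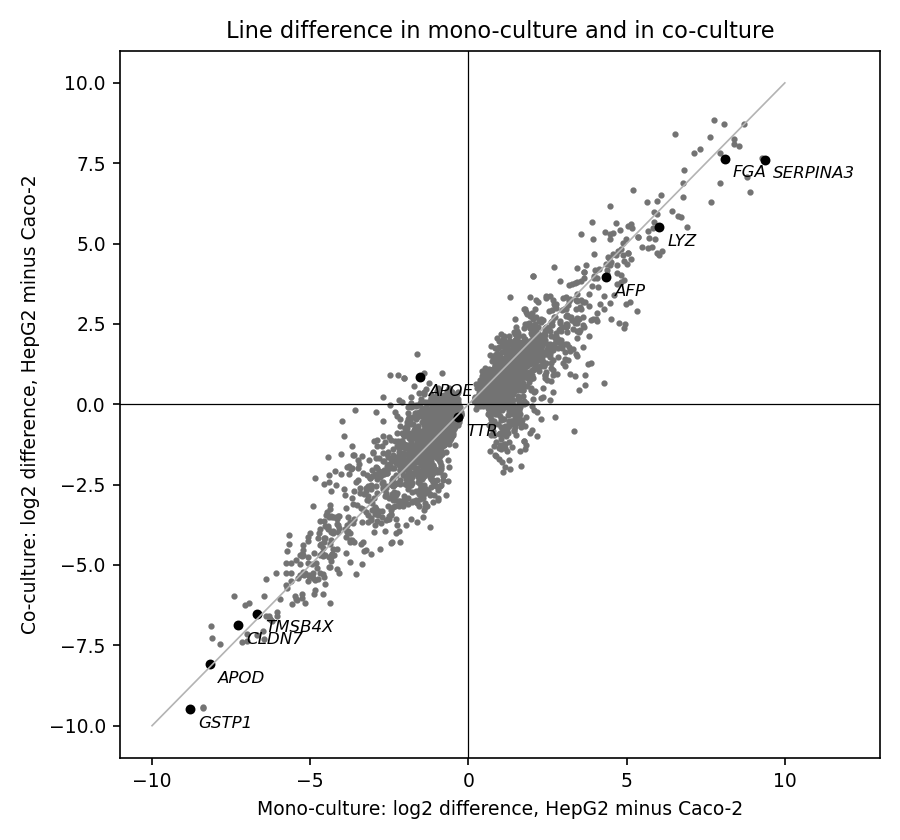
Log2 difference, HepG2 minus Caco-2, in co-culture (vertical) against mono-culture (horizontal) for the 2845 genes called in mono-culture, with the line of equality. Most genes lie near that line, 2623 of them with the same sign, and APOE is among the exceptions.

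Differences also varied by chromosome. The median log2 difference of tested genes was 0.34 on chromosome 14, where 43.4% were higher in HepG2, and 0.36 on chromosome 16. It was -0.54 on chromosome 12, where 42.0% were higher in Caco-2, -0.51 on chromosome 11 and -0.47 on chromosome 10. The median levels of the HepG2 and Caco-2 libraries overlapped only for chromosomes 3, 15, 19 and 20 among the nuclear ones. Among genes that reached 10 CPM on average in each line they overlapped for chromosomes 1, 9, 15, 18, 19, 20 and 22, and the medians were smaller but of the same sign, 0.24 for chromosome 14, -0.39 for chromosome 12, -0.37 for chromosome 11 and -0.30 for chromosome 10.

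**Figure D5:**
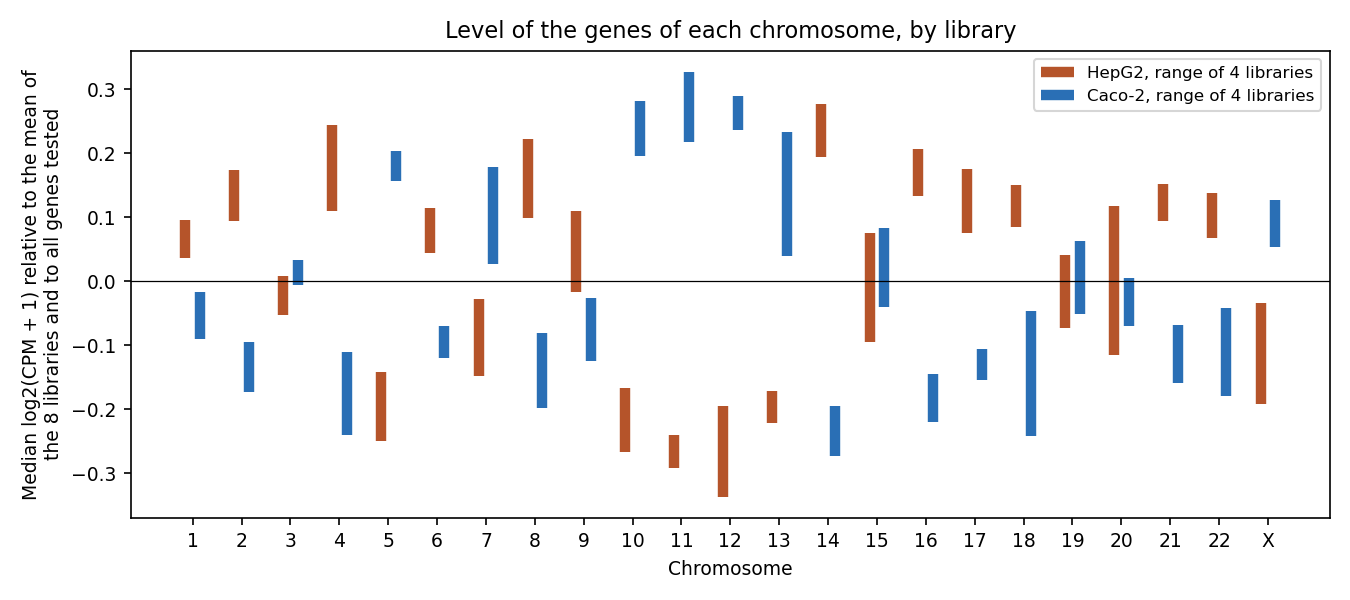
Median log2(CPM + 1) of the tested genes of each chromosome, relative to the mean of the 8 libraries and to all tested genes, as the range over the 4 libraries of each line. HepG2 lies above Caco-2 on chromosomes 14 and 16 and below it on chromosomes 10, 11 and 12.

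Markers of other cell types were low or absent. Endothelial, fibroblast and myoblast lists had no gene above the floor, with 6 of 8, 5 of 10 and 9 of 12 members at 0 in all 8 libraries. Their summed levels were 0 to 2.32, 0 and 10.9 to 16.2 CPM in HepG2 and 2.74 to 12.4, 10.96 to 16.1 and 0 to 2.35 CPM in Caco-2. The myoblast list was included because the extraction field of the labels names myoblasts, which no group is said to hold. Of 10 immune markers, 5 were at 0, PTPRC, the common leukocyte antigen, among them. The list summed to 724 to 873 CPM in HepG2 and 49.3 to 79.4 CPM in Caco-2, nearly all of it from LYZ in HepG2, and CD68, a lysosomal glycoprotein, was higher in Caco-2 (log2 difference -2.95).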

How the data were processed

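PolyA RNA of 16 libraries (8 groups, 2 replicates each) was sequenced as barcoded cDNA on a Nanopore instrument. The authors deposited 1 table per library, named TPM. Its values were whole multiples of 1 step, the same for genes of every length, and summed to the same total in every library, so the deposited values are CPM, not scaled by gene length. Within 0.02 read, 98.1 to 99.5% of values came out whole, and all did when rounding at 0.01 CPM was allowed. The submitters' processing notes name minimap2 2.22 and GRCh38. The study's methods describe STAR, RSEM and Ensembl annotation without saying for which reads, and the removal of mitochondrial genes, which were present in the tables. Of the identifiers, 60295 of 60623 (99.46%) were placed with GENCODE 44. Among genes named, CFI, VTN, PEG3, CYP51A1 and MT1X also each overlap a listed gene with a similar read count, and the reads may be shared.

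Log2(CPM + 1) of genes with a mean of at least 10 over the 8 mono-culture libraries entered a linear model in R 4.3.3 with limma 3.58.1 (4 group means, trended prior, 4 residual and 8.52 prior degrees of freedom). The contrast was the mean of both HepG2 groups minus the mean of both Caco-2 groups, with Benjamini-Hochberg adjustment over all 5322 genes. A called gene had an adjusted p under 0.05. The main test is on CPM. On the recovered reads, edgeR 4.0.16 (quasi-likelihood) called 3060 genes and DESeq2 1.42.0 called 2241. The fitting script was tested on simulated data. Shares of libraries were compared by exact two-sided permutation tests.

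The genes named were the markers, the 12 largest log2 differences and the 6 largest CPM differences in each direction, and from each list up to 5 called members, up to 2 in the opposite direction and up to 2 not called. Any other gene, among them every gene that was not tested except the markers, was chosen after its values were seen. The comparison, its members and the lists were chosen with earlier results of these data known. Lists are described by counts beside those over all genes, without a set test. Of the 100 genes most higher in HepG2 and in Caco-2, 57 and 65 had a RefSeq promoter entry, so a comparison of motif shares between them was void. A check of protein ends was not run here, and some genes that the rule names are not reported here. Alternatives were other pseudocounts, filters, scalings, tools, priors, a replicate block, thinning to the shallowest library, leaving out each library, single treatments and the co-culture libraries.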

Additional observations from a re-analysis of the deposited data

Results flagged for a closer look

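In 8 of 197 groups of 4 libraries, a single library stood apart from the other 3 further than Dixon's critical value for 4 values allows, where chance gives about 1 in 20. Among the HepG2 libraries, A2M was at 719.6 CPM in a single library against 532.3 to 563.9 in the others, DDC at 61.24 against 32.75 to 36.17, MVD at 32.75 against 5.86 to 9.42, PLIN2 at 396.6 against 164.2 to 202.6, and RPS25 at 3518 against 4331 to 4452. Among the Caco-2 libraries, AGR3 was at 11.75 CPM against 29.68 to 30.54, TFF3 at 86.55 against 67.49 to 69.33, and GSTP1 at 3588 against 4017 to 4081. The cause was not tested.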

How the results depend on the processing

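The count of 2845 genes ranged from 2241 to 3739 over the other pseudocounts, scalings, tools, priors and no filter, and from 2437 to 2787 without a single library. It was 1983 for genes with a mean of at least 10 in both lines and 1359 for genes with a mean of at least 50, where fewer were tested, and 1869 in the FFA libraries alone, where fewer libraries were compared. For the line contrast in mono-culture, genes called in common had the same direction under every alternative. The interaction called 1 gene with a mean of at least 50, 1 with a mean of at least 10 in both lines, 1 in edgeR and 1 in DESeq2, each time MT-CYB, and 0 to 27 without a single library. The share of the library total held by its 10 most abundant genes differed by -0.544 points without mitochondrial genes, by 0.103 points (exact p = 0.971) for 100 genes, and by 3.27 to 3.71 points without a single library, where exact p was 0.0571, the smallest that 35 splits allow. Replicate numbers were not used to pair the samples in the main fit. Correlations of deviations were -0.021 to 0.056, and -0.10 to 0.14 for genes with a mean of at least 100, not every pair being over 0.1. Such correlations cannot settle whether same-numbered libraries share an experiment. With a replicate block 2863 genes were called and VIL1 was not (limma adjusted p = 0.0502). Of 131 called genes named or considered, 111 kept direction and call under all 27 alternatives run for them. Directions turned in co-culture for APOE (0.85), ASL (-0.024), CYP51A1 (0.30), TFF3 (-0.23) and LDHA (0.11), in the control libraries alone for TTR (0.032), and in the FFA libraries alone for C4BPB (0.018), HPX (-0.095) and LDHA (0.087). The cause was not tested. Depth limits genes near 10 CPM, which rest on as few as 31 reads over the 8 libraries.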
